A study of Mus musculus with 5 samples.

Results

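Regulated secretion of insulin runs on a shared set of proteins, and 36 genes of that set are described here in MIN6 cells, a beta-cell line from a mouse insulinoma that secretes insulin. They encode SNARE proteins, synaptotagmins, Munc18 proteins, Rab3 and Rab27 GTPases, Rab effectors, priming factors, complexins and the factors that take SNARE complexes apart. The rule takes non-control probes whose gene name on the array is a listed symbol, with the probe of highest mean signal standing for each gene, and uses no difference between groups. All 36 were among the 31829 genes on the array, 35 had a probe with a usable spot on every array, and 34 passed the filter on dim probes and were tested.

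The study asked how vesicles released by muscle change gene expression in beta cells. Muscle was dissected from mice and kept ex vivo, and the exosomes it released were collected by ultracentrifugation and given to MIN6 cells. The groups were MIN6 cells given exosomes of high fat diet mouse muscle (EXO-HP, n = 3 arrays) and MIN6 cells given exosomes of standard diet mouse muscle (EXO-STD, n = 2 arrays). Both groups thus received muscle exosomes, and no sample without exosomes was analysed here. MIN6 is a tumour line, and the labels do not say whether cultures, exosome preparations or mice were separate, so p-values measure only the spread between these samples, part of which may be technical.

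A secretory granule fuses with the plasma membrane when a vesicle SNARE pairs with plasma membrane SNAREs of the syntaxin and SNAP families. Munc18 proteins hold and guide the syntaxin, Munc13 and CAPS proteins prime the granule, synaptotagmins couple fusion to calcium, and complexins act on the assembled complex. Rab3 and Rab27, with their effectors, bring insulin granules to the membrane, and NSF with alpha-SNAP recycles the SNAREs after fusion.

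Each value below is a normalised log2 signal, where 0 is the 75th percentile of the array's non-control probes, and a fold change is EXO-HP minus EXO-STD on that log2 scale. EXO-HP replicate 1 and both EXO-STD replicates shared slide 1 and scan 1, whereas EXO-HP replicates 2 and 3 were on slide 2 and scan 2. Spots well above background made up 74.0%, 91.6% and 81.6% on EXO-HP replicates 1 to 3, against 73.4% and 71.8% on the EXO-STD replicates. Dim probes stood higher on slide 2: over the lowest decile of tested probes by mean signal, EXO-HP replicates 1 to 3 exceeded the EXO-STD mean by a median of 0.23, 1.53 and 0.74. Precision is limited by the small number of arrays, with a median SE of 0.27 for the log2 fold changes of all tested probes.

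The cells carried the markers of their label. All 12 beta cell markers, among them Ins1, Ins2, Iapp, Pdx1 and Mafa, were well above background on all 5 arrays. So were 1 of 2 delta cell, 1 of 1 PP cell, 2 of 4 acinar, 2 of 4 neuron, 2 of 5 fibroblast, 4 of 4 macrophage, 2 of 3 endothelial and 5 of 10 skeletal muscle markers, while Pnlip and Pdgfra were well above background on none. Gcg, Irx2 and Ttr, genes of alpha cells, were also well above background on all 5 arrays, Gcg at a mean of 5.32 in EXO-HP and 5.30 in EXO-STD and Ttr at 5.30 in EXO-HP and 4.69 in EXO-STD. Of the 10 skeletal muscle markers, 8, 9 and 8 were well above background on the EXO-HP arrays, against 7 and 5 on the EXO-STD arrays. Their log2 summed level was -0.12 to 0.66 on the EXO-HP arrays and -0.45 to -0.31 on the EXO-STD arrays. The fibroblast sum was -2.83 to -1.76 in EXO-HP and -2.83 to -2.74 in EXO-STD, and the beta cell sum was 9.37 to 9.46 in EXO-HP and 9.14 to 9.21 in EXO-STD. In bulk RNA a change in the number of cells of a type and a change in RNA per cell cannot be told apart, and the part of these markers in the values below was not tested.

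Probe sequences decide how far a signal can be tied to its gene, so the stretches on which the results for Snap25, Snap23, Cplx2, Rab3c and the members with separated groups turn are shown here, from the array tables. Each is up to 30 bases of the 60-base probe, with probe positions on mm9 as the array design gives them. Capitals mark a tandem repeat in Snap25, Snap23 and Cplx2, and bases shared with a probe of another gene in Rab3c and Syt11. Sharing, here and below, was counted on either strand. A probe of another gene thus holds the same 16 bases or their reverse complement, and the counts do not separate these cases. The probes are Snap25 at chr2:136607709-136607768 (plus strand), Snap23 brightest at chr2:120425750-120425809 (plus), Snap23 other at chr2:120411292-120411905 (plus), Cplx2 brightest at chr12:99117899-99117958 (plus), Cplx2 other at chr13:54485200-54485259 (plus), Rab3c brightest at chr13:110850524-110850583 (minus), Rab3c other at chr13:110844454-110844513 (minus), Stx1a at chr5:135526477-135526536 (plus), Syt11 at chr3:88548623-88548682 (minus) and Stx3 at chr19:11852038-11852097 (minus). Whether they lie in a coding exon or an untranslated region was not looked up, since no mm9 annotation was used.
Snap25: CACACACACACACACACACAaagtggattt
Snap23 brightest: gatACACACACACACACACACACACAtgaa
Snap23 other: tctcaggatgcaggaatcaagaccatcact
Cplx2 brightest: AGGAGGAGGAGGAGGAGGAGGAGGAGGAGG
Cplx2 other: tccccactttgtatgatgcaaatgctaaga
Rab3c brightest: TCTACAGAGTGAGTTCTAggatagcaaagg
Rab3c other: ctgttaggtatttagtttgtgtgtgaattc
Stx1a: agcaggccatagtcctaacaggcatggtaa
Syt11: ATGCGCCACACACGTGCAGAATAAAGACTG
Stx3: ggccagctgaaagtttgaaatgccacatat

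Probes of nearly the whole set gave signal in MIN6 cells. Where a probe shares stretches with other genes, as for Snap25 and Rab3c, signal does not by itself show RNA of the gene. Of the 35 genes with a usable probe, 34 (97.1%) were well above background on all 5 arrays, against 68.5% of all genes on the array. Most families were represented by several isoforms at once, within the limits of probe sequence given with each gene: Snap25 and Snap23, Stx1a, Stx3 and Stx4a, Vamp2, Vamp3 and Vamp8, all 7 synaptotagmins of the set, Rab3a to Rab3d, both Munc13 genes and both complexins. Signals of different probes are not compared, since probes bind with different strength, so no isoform is ranked above another. Cadps2, a homologue of the priming factor CAPS1, was the exception. Its brightest probe had normalised log2 signals of -7.01, -3.61 and -7.36 in EXO-HP and -7.78 and -6.03 in EXO-STD, and it was well above background on EXO-HP replicate 2 only. Its other probe was well above background on no array.

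**Figure D1:**
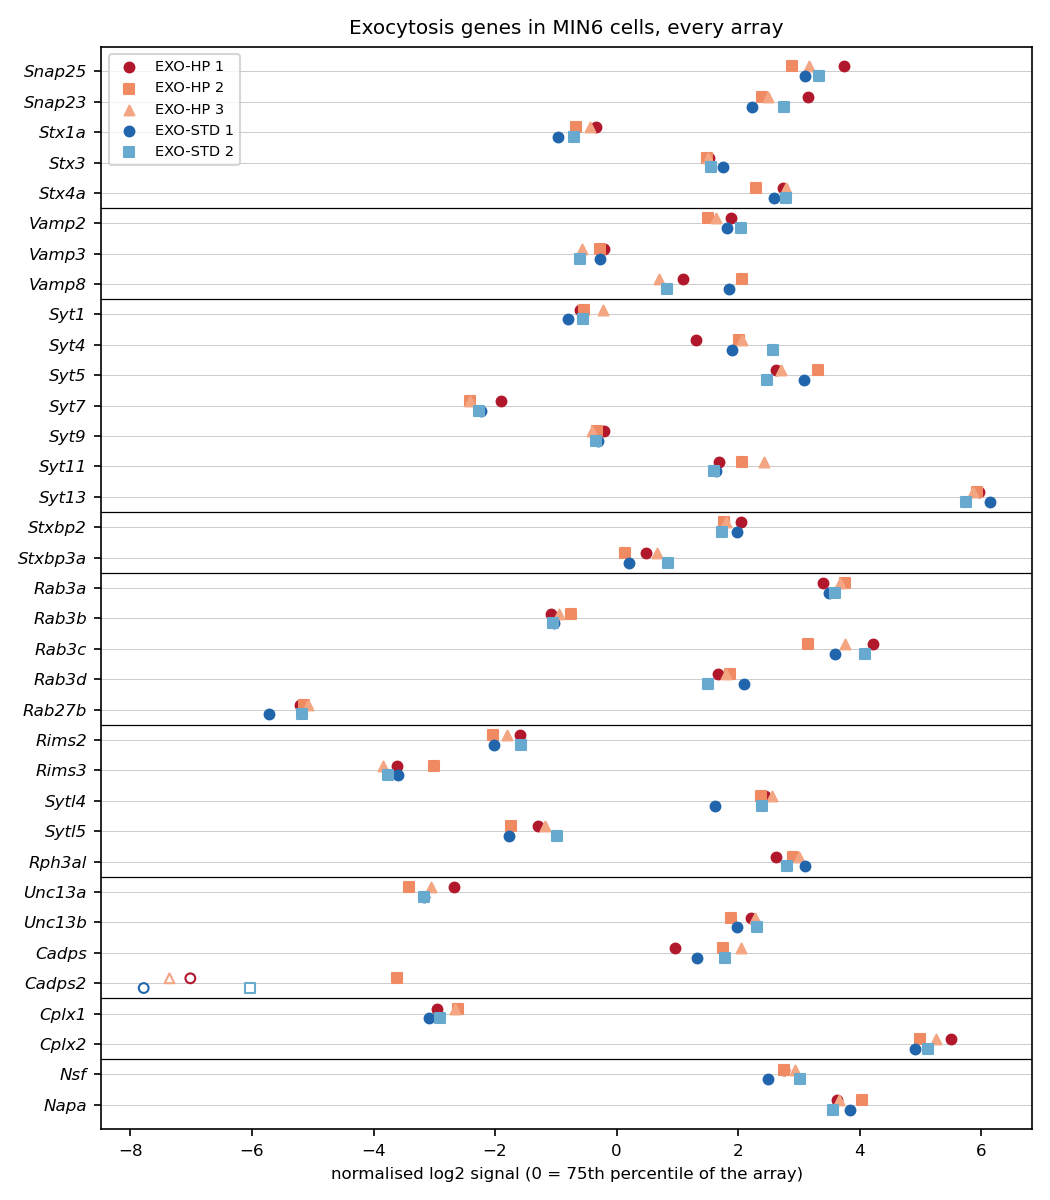
Normalised log2 signal (0 = 75th percentile of the array) of the 35 members with a usable probe, by role from plasma membrane SNAREs at the top to disassembly factors at the bottom. Each point is 1 array, EXO-HP above EXO-STD, and hollow points were not well above background. Cadps2 alone has hollow points, and the groups lie apart only for Stx1a, Syt11 and Stx3.

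No member passed the test. Limma called 0 of the 34 members at an adjusted p of 0.05, and none of them (0 of 34) reached an unadjusted p under 0.05. Over all 31945 tested probes the called share was 0%, the smallest adjusted p was 0.814, and 5.59% had an unadjusted p under 0.05. Of the members, 21 were higher and 13 lower in EXO-HP by the fitted value, against 62.8% higher over all tested probes. When arrays were scaled to their median instead, 9 members were higher, against 35.8% of all probes. The members' median log2 fold change was 0.04, against 0.07 over all tested probes, and the range ran from -0.44 (Syt4) to 0.44 (Syt11 and Sytl4).

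The 5-array fit, which has no slide term, also gave intervals for the differences in probe signal. The log2 fold changes of 34 of 34 members lay within 0.5 of 0, against 81.5% of all tested probes. All 34 were well above background on all 5 arrays, as were 26953 of the 31945 tested probes. No share over probes of like signal was computed. Neither this percentage nor the one for intervals below therefore shows an unusually stable set. Within slide 1 alone, where EXO-HP has 1 array, 5 members lay beyond 0.5: Syt4 at -0.93, Snap23 at 0.66, Cadps at -0.60, Snap25 at 0.52 and Unc13a at 0.50. The 95% interval lay within 1 log2 unit of 0 for 29 of 34 members, against 62.2% of all tested probes. The exceptions were Vamp8, Syt4, Syt11, Rab3c and Sytl4, so for these 5 genes the 5-array fit did not bound the difference to under 2-fold. For the other members the bound applies to that fit and to probe signal, which for Snap25 and Cplx2 comes from repeat-holding probes. No interval with a slide term is given here. The groups did not overlap for 3 members (Stx1a, Syt11 and Stx3), against 17.8% of all tested probes. Of these, 2 were higher, where the background was 15.1%, and 1 was lower, where it was 2.76%. With 3 against 2 arrays, the smallest p an exact 2-sided permutation test allows is 0.2.

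**Figure D2:**
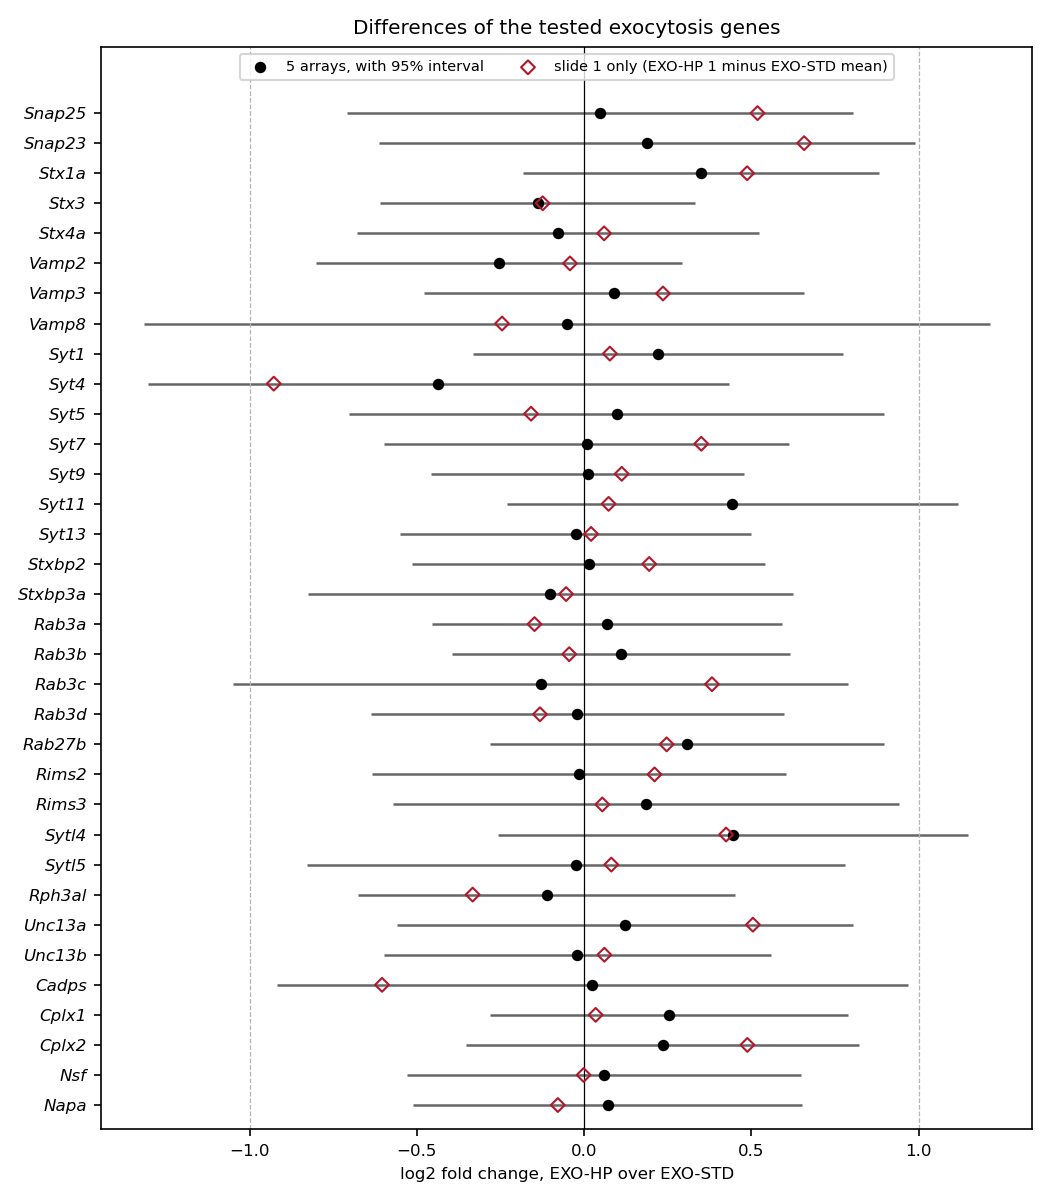
Log2 fold change of the 34 tested members, EXO-HP over EXO-STD, in the order of the level plot. Filled points and lines give limma's value from 5 arrays with its 95% interval, open diamonds give EXO-HP replicate 1 minus the EXO-STD mean, all on slide 1, and dashed lines stand at 1 log2 unit. Every interval crosses 0.

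Among the plasma membrane SNAREs, Stx1a, the syntaxin that pairs with SNAP-25 at insulin release sites, had normalised log2 signals of -0.34, -0.66 and -0.44 in EXO-HP and -0.96 and -0.70 in EXO-STD. All EXO-HP arrays were higher than both EXO-STD arrays, although the gap between EXO-HP replicate 2 and EXO-STD replicate 2 was narrow. The mean was -0.48 ± 0.17 in EXO-HP (SD, n = 3) and -0.83 ± 0.18 in EXO-STD (SD, n = 2), a log2 fold change of 0.35 ± 0.21 (SE), with a limma adjusted p of 1.00. Within slide 1 the difference was 0.49.

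Stx3, a syntaxin also found on secretory granules, had 1.52, 1.49 and 1.51 in EXO-HP and 1.75 and 1.55 in EXO-STD. The EXO-HP arrays were nearly equal to each other and just below EXO-STD replicate 2. Its log2 fold change was -0.14 ± 0.19 (SE, limma adjusted p 1.00). Its other probes gave 0.11 and -0.02 with overlapping groups, so no other probe of the gene showed the separation. Stx4a, the syntaxin linked to the second phase of insulin release, had -0.08, with overlapping groups.

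Snap25, the main neuronal and endocrine partner of syntaxin, had 3.74, 2.89 and 3.16 in EXO-HP and 3.10 and 3.34 in EXO-STD, and its groups overlapped. Snap23, its widely expressed homologue, had 3.15, 2.39 and 2.50 in EXO-HP and 2.23 and 2.75 in EXO-STD from its brightest probe. EXO-HP replicate 1 was the highest array for both genes. The only Snap25 probe opens with a CA repeat of 20 bases, and the bright Snap23 probe holds one of 23 bases. Each shared stretches of 16 bases, on either strand, with probes of 109 other genes. The Snap23 probe without shared stretches had -1.35, -1.78 and -1.66 in EXO-HP and -1.63 and -1.59 in EXO-STD, with a log2 fold change of 0.01, against 0.19 for the bright probe.

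The array-to-array pattern of the CA repeat probes was common to genes outside the set. On the array, 30 other probes of 30 genes held at least 8 CA units, and 30 of them were well above background on all arrays. Their median difference from the EXO-STD mean was 0.62, -0.21 and 0.02 on EXO-HP replicates 1 to 3. On EXO-HP replicate 1 their differences ran from -0.23 to 0.86. Over all tested probes the medians on these arrays were 0.05, 0.18 and 0.06. The corresponding differences were 0.52, -0.32 and -0.05 for Snap25, and 0.66, -0.10 and 0.01 for the bright Snap23 probe. The Snap23 probe without the repeat had 0.26, -0.17 and -0.05. The Unc13a probe, which shares no stretch with another gene, had 0.50, -0.25 and 0.11. The order of the EXO-HP arrays was thus not particular to CA repeat probes. How much of the Snap25 signal came from Snap25 RNA was not tested.

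**Figure D3:**
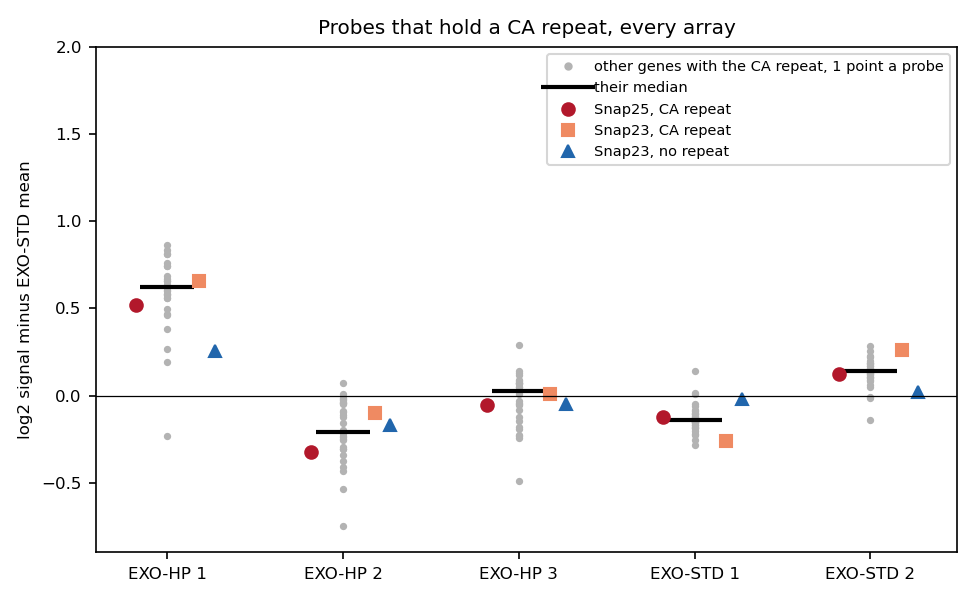
Log2 signal minus the EXO-STD mean on each array for probes that hold a CA repeat. Grey points are the 30 probes of other genes, black bars their median (0.62 on EXO-HP replicate 1), and coloured marks the Snap25 probe and both Snap23 probes. The Snap25 probe and the bright Snap23 probe stand with the grey points on every array.

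The vesicle SNAREs did not separate by group. Vamp2, the main vesicle SNARE of insulin granules, had 1.89, 1.50 and 1.64 in EXO-HP and 1.81 and 2.05 in EXO-STD, a log2 fold change of -0.26 ± 0.22 (SE, limma adjusted p 1.00). EXO-HP replicate 1 lay between the EXO-STD arrays and the other 2 EXO-HP arrays below them. Vamp3, which can stand in for Vamp2, had a log2 fold change of 0.09. Vamp8, a SNARE of newly arriving granules, varied most within the groups, with 1.09, 2.06 and 0.70 in EXO-HP and 1.85 and 0.83 in EXO-STD, and its standard error of 0.51 was the largest of the set.

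Among the synaptotagmins, Syt11, a member that lacks the usual calcium response, had 1.69, 2.06 and 2.43 in EXO-HP and 1.63 and 1.60 in EXO-STD. The EXO-HP arrays were all higher, with EXO-HP replicate 1 only just above the EXO-STD arrays. The mean was 2.06 ± 0.37 in EXO-HP (SD, n = 3) and 1.62 ± 0.02 in EXO-STD (SD, n = 2), a log2 fold change of 0.44 ± 0.27 (SE, limma adjusted p 1.00). Within slide 1 it was 0.07, and the difference rested on the 2 arrays of slide 2. The slide's own part in it was not tested. The Syt11 probe shares a stretch with a probe of 1 other gene name, LOC100045981.

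Syt4, a granule synaptotagmin that rises as beta cells mature, had 1.31, 2.02 and 2.07 in EXO-HP and 1.90 and 2.58 in EXO-STD, the lowest fitted log2 fold change of the set (-0.44 ± 0.35, SE). The groups overlapped, with EXO-HP replicate 1 the lowest and EXO-STD replicate 2 the highest array. The value was -0.93 within slide 1, -0.19 without EXO-HP replicate 1, -0.78 without EXO-STD replicate 1 and -0.096 without EXO-STD replicate 2. The calcium sensors Syt7 and Syt9, which are linked to insulin release, each had a log2 fold change of 0.01. Syt9 was among the steadiest genes, with -0.21, -0.32 and -0.40 in EXO-HP and -0.31 and -0.33 in EXO-STD. Syt1 had 0.22, Syt5 had 0.10 and Syt13 had -0.03, with overlapping groups in each.

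The Munc18 proteins chaperone syntaxins. Stxbp3a (Munc18c), the partner of syntaxin 4, had 0.48, 0.14 and 0.67 in EXO-HP and 0.21 and 0.85 in EXO-STD, a log2 fold change of -0.10 ± 0.29 (SE, limma adjusted p 1.00). Its groups overlapped, and its other probes gave -0.34 and 0.07. Stxbp2 (Munc18b) had 0.01, and its dimmer probe, which shares stretches with 5 other genes, had -0.15.

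Of the granule Rabs, Rab27b had the smallest p, with -5.21, -5.15 and -5.08 in EXO-HP and -5.73 and -5.18 in EXO-STD. EXO-HP replicate 1 lay just below EXO-STD replicate 2, so the groups overlapped, and the log2 fold change was 0.31 ± 0.24 (SE, limma adjusted p 1.00). The gene is dim, and its brightest probe shares stretches with 18 other genes, whereas its unshared probe gave 0.26. Rab3a had 0.07, Rab3b 0.11 and Rab3d -0.02, each with overlapping groups. A dimmer Rab3d probe had -1.18, -1.33 and -1.29 in EXO-HP and -1.70 and -1.47 in EXO-STD, with all EXO-HP arrays higher and a log2 fold change of 0.32 ± 0.20 (SE).

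Rab27a, the main Rab27 of insulin granules, has a single probe, and the scanner software set aside its spot on EXO-STD replicate 1 as an outlier. With such spots kept it had 1.42, 0.97 and 1.39 in EXO-HP and 1.29 and 1.15 in EXO-STD, and was well above background on 5 arrays. The groups overlapped, and the log2 fold change was 0.04 with a 95% interval of -0.53 to 0.61.

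Rab3c differed between its own probes. The bright probe had 4.23, 3.16 and 3.76 in EXO-HP and 3.60 and 4.09 in EXO-STD, and a second probe that overlaps it in position moved with it, with log2 fold changes of -0.13 and -0.11. Both share stretches with Bfar, F10 and Hccs. The probe without shared stretches had -8.58, -6.78 and -6.52 in EXO-HP and -8.62 and -8.13 in EXO-STD. It was well above background on 2 EXO-HP arrays, both of slide 2, and on 0 EXO-STD arrays, and its bound gave no fold. Detection of Rab3c in EXO-STD cells therefore depended on the probe read.

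The Rab effectors link Rab3 and Rab27 to the fusion machinery. Sytl4 (granuphilin), which docks insulin granules through Rab27a and syntaxin, had 2.44, 2.38 and 2.56 in EXO-HP and 1.63 and 2.40 in EXO-STD, a log2 fold change of 0.44 ± 0.28 (SE, limma adjusted p 1.00). The 3 EXO-HP arrays and EXO-STD replicate 2 were close together, and EXO-STD replicate 1 alone was low. The log2 fold change was 0.058 when that array was left out and 0.83 when EXO-STD replicate 2 was left out. Rims2, a scaffold that binds Rab3, had -0.02, Rims3, a short relative, 0.19, and Sytl5 -0.02. Rph3al (Noc2), a Rab3 and Rab27 effector needed for secretion in endocrine cells, had -0.11 from its bright probe and 0.0018 from the other.

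The priming factors Unc13a (Munc13-1), Unc13b (Munc13-2) and Cadps (CAPS1) had log2 fold changes of 0.12, -0.02 and 0.02. Unc13a had -2.67, -3.42 and -3.06 in EXO-HP and -3.17 and -3.17 in EXO-STD, so the EXO-HP arrays lay on either side of the EXO-STD pair (SE 0.27, limma adjusted p 1.00). Cadps varied more, with 0.96, 1.75 and 2.05 in EXO-HP and 1.33 and 1.79 in EXO-STD, and overlapped as well.

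The complexins clamp and promote SNARE-driven fusion. Cplx1 had -2.96, -2.60 and -2.66 in EXO-HP and -3.09 and -2.90 in EXO-STD, a log2 fold change of 0.25 ± 0.21 (SE, limma adjusted p 1.00), with EXO-HP replicate 1 between the EXO-STD arrays. Cplx2 had 5.50, 4.99 and 5.25 in EXO-HP and 4.91 and 5.12 in EXO-STD from its brightest probe, with a log2 fold change of 0.23. That probe carries a triplet repeat of 44 bases, shares stretches with 24 other genes and is placed on chromosome 12, while the other 3 Cplx2 probes are placed on chromosome 13. Of those 3, the probe without shared stretches gave -0.12. The others also hold repeats, of 26 and 58 bases, share stretches with 27 and 6 other genes, and gave -0.13 and -0.19. The fitted direction for Cplx2 thus depended on the probe. On the array, 12 other probes of 10 genes held at least 6 GAG units, with a median difference from the EXO-STD mean of 0.29, -0.32 and -0.01 on EXO-HP replicates 1 to 3.

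The disassembly factors did not separate by group. Napa (alpha-SNAP) had 3.62, 4.04 and 3.66 in EXO-HP and 3.85 and 3.56 in EXO-STD, a log2 fold change of 0.07 ± 0.23 (SE, limma adjusted p 1.00). Nsf, the ATPase it recruits, had 2.75, 2.76 and 2.93 in EXO-HP and 2.49 and 3.02 in EXO-STD, with 0.06 ± 0.24 (SE), and both genes had overlapping groups.

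**Figure D4:**
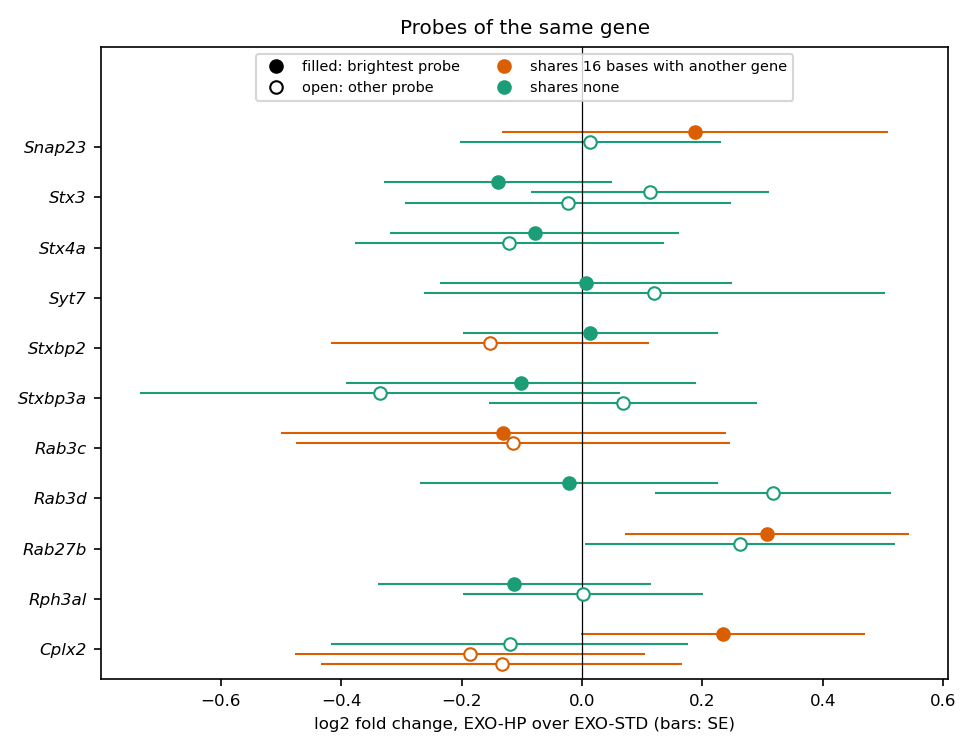
Log2 fold change (EXO-HP over EXO-STD) with its SE for each probe of the members that have several, leaving out probes that in 1 group were well above background on no array. Orange probes share at least 16 bases, on either strand, with a probe of another gene. Green probes share none, and filled points are the brightest probe. Cplx2 has a brightest probe above 0 and other probes below it.

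Shared stretches recurred across the set. Of the 52 member probes usable on every array, 12 shared a stretch of 16 bases, on either strand, with a probe of another gene. Of these, 9 did so with more than 1. When each member was represented by its brightest unshared probe, an alternative chosen after the data were seen, 30 members remained and 4 changed probe. Of these 30, 18 were higher in EXO-HP, 2 had groups that did not overlap, and limma called 0. Over all tested probes the shares were 62.8%, 17.8% and 0%.

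The slide divides the EXO-HP group, so the values of slide 1 alone were set beside the full fit. There, EXO-HP replicate 1 minus the EXO-STD mean was above 0 for 21 members and below 0 for 13, and 22 of 34 had the sign of the 5-array fit. The slide 1 arrays are part of that fit, so agreement of sign is partly built in. Over all tested probes 56.3% were above 0 there. The median difference of the members from the EXO-STD mean was 0.06, -0.01 and 0.03 on EXO-HP replicates 1 to 3, against -0.10 and 0.10 on the EXO-STD replicates. Over all tested probes the same medians were 0.05, 0.18 and 0.06 on the EXO-HP arrays, so on EXO-HP replicate 2 the members' median was below that of the array. The members' EXO-HP medians all lay between those of the EXO-STD replicates, which mirror each other about 0 by construction. Over all tested probes the EXO-STD medians were -0.0021 and 0.0021, and the EXO-HP medians lay above both.

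Other genes of regulated exocytosis, 84 in all, were read beside the members as context. Of 81 tested, 47 were higher and 34 lower, where 62.8% of all tested probes were higher. Their log2 fold changes had a median of 0.04 and ran from -0.28 to 1.65. None passed limma's threshold (0 of 81), and 3 had an unadjusted p under 0.05, against 5.59% of all tested probes. All EXO-HP arrays lay above both EXO-STD arrays for 16 and below them for 3, against 15.1% and 2.76% of all tested probes. Well above background on all arrays were 75 of the 84, and on some arrays Syt12, Syt16, Doc2b, Stxbp5l, Rims4, Sytl2, Mlph, Myrip and Cplx4.

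The non-overlapping genes with the smallest p in EXO-HP's favour included further Rab effectors. Myrip, which ties Rab27 granules to actin, had -5.53, -4.65 and -4.79 in EXO-HP and -6.27 and -6.18 in EXO-STD, a log2 fold change of 1.24 ± 0.31 (SE, limma adjusted p 0.884), and was well above background on 1 EXO-STD array. Its value was 0.70 within slide 1, 0.78 after quantile normalization, 0.37 in the series matrix and 0.24 after normexp with quantile normalization. Syt6 and Rph3a (rabphilin) each had 0.53 (limma adjusted p 0.891), and Exph5, a Rab27 effector, had 0.45. Under normexp with quantile normalization Rph3a had 0.30 and Exph5 0.073, and within slide 1 Syt6 had 0.31. Sytl2 was well above background on 2 EXO-HP arrays and not in EXO-STD. Its bound from the mean signals was 1.01-fold higher in EXO-HP, which takes no account of the spread between arrays. The 95% interval of its log2 fold change ran from -0.12 to 1.77 (limma adjusted p 0.922), and the value was 0.010 after quantile normalization. Those lower in all EXO-HP arrays were 3: Vamp4 at -0.17, Exoc1 at -0.15 and Stx12 at -0.09. Rims4, chosen after its values were seen as the largest difference, had -5.77, -3.78 and -3.65 in EXO-HP and -6.43 and -5.66 in EXO-STD, so its groups overlapped. It was not well above background in EXO-STD, where its own signal set the floor. The resulting 3.13-fold higher value in EXO-HP, under this processing only, is thus the fitted fold and no lower limit. Its 95% interval ran from -0.11 to 3.40 on the log2 scale (limma adjusted p 0.909). Its high arrays were both on slide 2, and its log2 fold change was 0.28 within slide 1, 0.79 in the series matrix and 0.51 after normexp with quantile normalization.

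**Figure D5:**
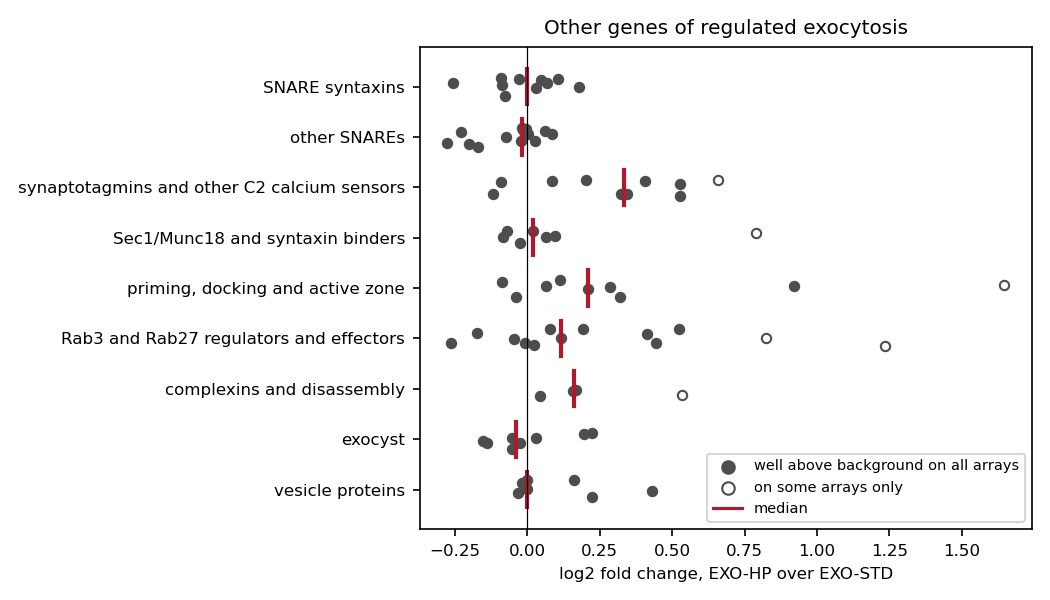
Log2 fold change (EXO-HP over EXO-STD) of the 81 tested other exocytosis genes by role, 1 point a gene, with the median of each role as a red bar. Open points were well above background on some arrays only and are dim, and the values furthest to the right (Rims4 at 1.65 and Myrip at 1.24) are among them.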

How the data were processed

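RNA of 5 MIN6 samples was measured on 1-colour Agilent mouse arrays. Per the file headers, the deposited spot intensity values come from Feature Extraction version 10.7.3.1 and are background-subtracted and detrended. Version 9.1 of it, and limma, are named in the submitters' processing notes. The deposited series table holds log2 values whose ranks equal those of mean signal minus local background on each array (Spearman rho = 1, medians 8.03 to 8.04). It served as an alternative, and its direction is that of the scanner signals. These ranks leave no room for centring of genes, and the sources used here do not name its normalization.

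Of 44397 spots an array, 43020 were not controls and held 39429 probes. Processed signals were put on the log2 scale without outlier spots, averaged over the spots of a probe, and set relative to the 75th percentile of their array. The test left out 110 probes lacking a usable spot on an array. It also left out 7374 dim probes, those that neither group had well above background on 2 or more arrays. The saturated spots numbered 0. The comparison used limma (version 3.58.1, R 4.3.3; lmFit, eBayes, no covariates, 3 residual and 2.59 prior degrees of freedom, Benjamini-Hochberg over 31945 probes). A fold is a bound where 1 group had the probe well above background on no array. For each such array the floor is the lowest signal of a probe well above background, or the probe's signal if higher, and no fold is given where the bound is under 1. Where the probe's signal is higher on every such array, the bound equals the fitted fold.

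All members are named, and those with groups that did not overlap or with the smallest p of their role have every array's value. Of the other exocytosis genes, up to 5 in each direction with the smallest p and groups that did not overlap are named. Some alpha cell markers are not reported here. The members and lists were chosen with earlier results of these data known. Alternatives were other normalizations, filters, probe choices, blocks by slide or replicate number, and leaving out each array. Probe positions are on mm9, per the file headers.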

Additional observations from a re-analysis of the deposited data

How the results depend on the processing

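Limma called 0 members and 0 other exocytosis genes under every alternative run, and 0 probes of the array except without EXO-STD replicate 1, where it called 3 (range 0 to 3 over the arrays left out) and none was a member. Scaling to the median moved the median of all tested probes to -0.10 (0.07 otherwise). With it 9 members (main 21) and 25 other exocytosis genes (main 47) were higher, and the members' median was -0.14. After normexp and quantile normalization 16 members were higher against 46.3% of all probes, after quantile normalization 18 against 46.8%, and with the series matrix values 16 against 45.5%. Leaving out 1 array gave 3 to 17 of 34 members with groups that did not overlap: 17 without EXO-STD replicate 1 (50.4% of all tested probes), 14 without EXO-STD replicate 2 (49.8%), 10 without EXO-HP replicate 1 (33.9%), 6 without EXO-HP replicate 2 (29.2%) and 3 without EXO-HP replicate 3 (25.4%). Fewer arrays separate more often by construction. The members' median ranged between 0.0075 and 0.11, with the highest value without EXO-STD replicate 2.

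Over 15 alternatives other than median scaling, the sign changed in 80 of 506 member values, and 8 of 34 members kept their direction. The alternatives that change only the filter on dim probes reuse the main values and could not change a sign. The replicate block repeats the log2 fold changes of the fit without EXO-HP replicate 3. The total of 506 thus holds values that were fixed or repeated. The cause of the sign changes was not tested, and none of the member values passed the threshold. Median scaling moved every member alike by -0.18, which by construction gave Snap25 -0.13, Vamp3 -0.087, Syt5 -0.080, Syt7 -0.17, Syt9 -0.17, Stxbp2 -0.16, Rab3a -0.11, Rab3b -0.065, Unc13a -0.053, Cadps -0.15, Nsf -0.12 and Napa -0.11. Normexp with quantile normalization gave Syt7 -0.10, Syt9 -0.013, Rab27b -0.11, Unc13a -0.037 and Cadps -0.029. Quantile normalization gave Syt7 -0.11, Syt9 -0.0077, Syt13 0.00037, Rab27b -0.21 and Unc13a -0.076. The series matrix gave Syt7 -0.12, Syt9 -0.016, Rab27b -0.18, Unc13a -0.050 and Cadps -0.031. Slide as a fixed block gave Stx4a 0.059, Syt5 -0.16, Syt13 0.020, Rab3a -0.15, Rab3b -0.045, Rab3c 0.38, Rims2 0.21, Sytl5 0.081, Unc13b 0.060, Cadps -0.60, Nsf -0.0019 and Napa -0.079. The mean over all probes of a gene gave Stxbp2 -0.070, Rab3c 0.28, Rab3d 0.15 and Cplx2 -0.051. The unshared probe gave Cplx2 -0.12 and Rab3c 1.08, from a probe not well above background in EXO-STD.

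Replicate numbers 1 and 2 were shared by both groups, and the deviations of same-numbered arrays from their group means correlated at 0.02 and -0.06. The deviations of 2 EXO-STD arrays mirror each other, and the EXO-HP arrays span both slides. These values therefore cannot settle whether same-numbered samples were paired. With the replicate block limma called 0 members, the members' median was 0.07, 21 were higher, and Vamp8 (0.24), Syt13 (0.0010), Cadps (-0.21) and Nsf (-0.00050) changed sign.

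Over the arrays left out in turn, the log2 fold changes of members that changed sign ranged over Snap25 -0.19 to 0.23, Snap23 -0.074 to 0.45, Vamp8 -0.57 to 0.46, Syt7 -0.16 to 0.094, Syt9 -0.041 to 0.055, Stxbp2 -0.12 to 0.14, Rab3d -0.31 to 0.27, Unc13a -0.068 to 0.31, Stx4a -0.18 to 0.078, Syt5 -0.21 to 0.41, Stxbp3a -0.42 to 0.22, Rab3a -0.0051 to 0.18, Rab3c -0.39 to 0.15, Rims2 -0.23 to 0.20, Rims3 -0.060 to 0.36, Sytl5 -0.42 to 0.37, Unc13b -0.18 to 0.14, Cadps -0.21 to 0.34, Napa -0.077 to 0.22, Syt13 -0.22 to 0.17, Nsf -0.20 to 0.32, Rph3al -0.27 to 0.042 and Vamp3 -0.081 to 0.26. Without a change of sign, Syt4 ranged from -0.78 to -0.096 and Sytl4 from 0.058 to 0.83. Where 1 EXO-STD array was left, limma took its spread from EXO-HP and the other probes.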
